A study of Homo sapiens with 6 samples.

Results

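The G1 cyclins, their cyclin-dependent kinases (CDKs) and the phosphatase CDC25A were examined by RNA sequencing in U87-MG, a long-used human cell line from a glioblastoma. The members were the entries of the deposited table with the symbols CCND1, CCND2, CCND3, CCNE1, CCNE2, CDK2, CDK4, CDK6 and CDC25A, which are 9 of 61806 genes. Of these 9, 8 passed a filter of a mean of at least 0.5 FPKM (a read count scaled to the exonic length of the gene and to the total count of the library) over the 6 libraries, among 15870 genes that did. CCND2 did not pass. Each of the 8 also had a mean above 0.5 FPKM in both groups.

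Total RNA came from 3 negative control (NC) libraries, labelled as wildtype, and 3 libraries of U87-MG cells labelled GRIK1 siRNA, with the genotype GRIK1 knockdown. GRIK1 encodes a kainate-type glutamate receptor subunit, and the comparison was made to find what its knockdown does to gene expression in glioblastoma. The labels give no age of culture, dose or time, and they do not say whether the numbers 1 to 3 are separate cultures or, for the second group, separate siRNA sequences. The p-values therefore measure only the spread between these libraries, which may be technical. The submitted design text names an shRNA and the labels an siRNA.

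GRIK1 itself was counted 18, 9 and 8 times in NC libraries 1, 2 and 3, against 15, 20 and 20 times in the libraries labelled GRIK1 siRNA, called siRNA-labelled below. By these counts the targeted gene was not lower in the libraries named after its knockdown, so their name is only a label here. At 0.13 to 0.38 FPKM, under the filter, so few counts measure a change in GRIK1 only coarsely. The paper separately reports efficient knockdown of GRIK1 in U87-MG cells, and states that siRNA1 served in its later experiments. Total counts lay between 11099909 and 14006968 per library. NC library 3 stood apart, with 9.37% of its counts on ribosomal protein genes against 4.79% to 5.50% in the other 5 libraries, and its correlation with any other library across genes was at most 0.968. The tests of the members and of the named genes below are given with and without NC library 3. Of the glioma and astrocyte markers, VIM (825 to 1076 FPKM) and CD44 (50.8 to 71.6 FPKM) were abundant, while GFAP, S100B, SOX2, OLIG2 and NES were each under 1 FPKM in all 6 libraries. GFAP, at 0.05 to 0.10 FPKM in the NC libraries and 0.25 to 0.28 FPKM in the others, was higher in all 3 siRNA-labelled libraries, with 8 to 13 counts against 36 to 39. CDKN2A, which is known to be deleted in U87-MG, had 0 to 2 counts per library. Of 9 markers of blood, epithelium, endothelium, neurons and oligodendrocytes, SNAP25 made up most of the summed level, which was 41.5 to 47.9 in the NC libraries, against 36.5 to 38.1 in the others as normalized CPM (counts scaled to a common library size), with 2 or 3 of the 9 at 0 in each library. Without SNAP25, that sum was 4.79 to 7.06 normalized CPM in the NC libraries, against 7.66 to 7.91 in the others. SNAP25 and MBP were lower, and RBFOX3 higher, in all 3 siRNA-labelled libraries. CD3E was at 0 in all 6 libraries, and the part of these genes in the results was not tested.

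A cell passes from G1 into S phase when D-type cyclins bind CDK4 or CDK6, E-type cyclins bind CDK2, and these kinases phosphorylate the retinoblastoma protein so that E2F factors are released. CDC25A removes inhibitory phosphates from CDK2 and so activates it. In glioblastoma this step is often freed by loss of CDKN2A or by gain of CDK4 or CDK6. In bulk RNA, fewer cells in a phase of the cycle and less RNA per cell cannot be told apart.

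In the siRNA-labelled libraries, CDC25A, the E cyclin CCNE2, CDK2, CDK4 and the D cyclins CCND1 and CCND3 were each below all 3 NC libraries in normalized CPM, although CCND3 overlapped on the FPKM scale. CDK6 was above them, and CCNE1 overlapped. CDC25A was at 0.488 of its NC level, and with 6 libraries it was the only member that passed the edgeR test over all genes. Of the 8 tested members, 6 had groups that did not overlap with the siRNA-labelled libraries lower, against 19.0% of all tested genes. There was 1 member, CDK6, whose groups did not overlap in the other direction, against 19.4% of all tested genes. The median log2 fold change of the 8 members was -0.52, against -0.02 over all tested genes. Leaving out NC library 3 gave -0.46, against 0.01.

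Counts were tested in edgeR by quasi-likelihood, with Benjamini-Hochberg adjustment over the 15870 genes. At an adjusted p under 0.05 it called 1 of 8 members lower (1.48% of all tested genes) and 0 of 8 higher (1.60% of all tested genes). At an unadjusted p under 0.05 in edgeR, 5 members were lower (13.2% of all tested genes) and 0 higher (12.0%). DESeq2 called 3 lower after adjustment (4.84% of all tested genes) and 0 higher (5.20%). With a fold change threshold added, an absolute log2 value over 1, CDC25A was still called, against 0.542% of all tested genes that were lower by this rule. Without NC library 3, edgeR called 5 of 8 members lower (18.3% of all tested genes) and 1 of 8 higher (16.9% of all tested genes). The 5 were CDC25A, CCNE2, CDK2, CDK4 and CCND1, and the 1 was CDK6. When instead 1 of the other 5 libraries was dropped, edgeR called 0 members and 0 of all tested genes, while 4 to 6 members had an unadjusted p under 0.05, as did 14.1% to 27.9% of all tested genes. Over all genes, edgeR called 235 lower and 254 higher. The split was 183 lower and 309 higher when libraries were scaled by total counts alone.

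**Figure D1:**
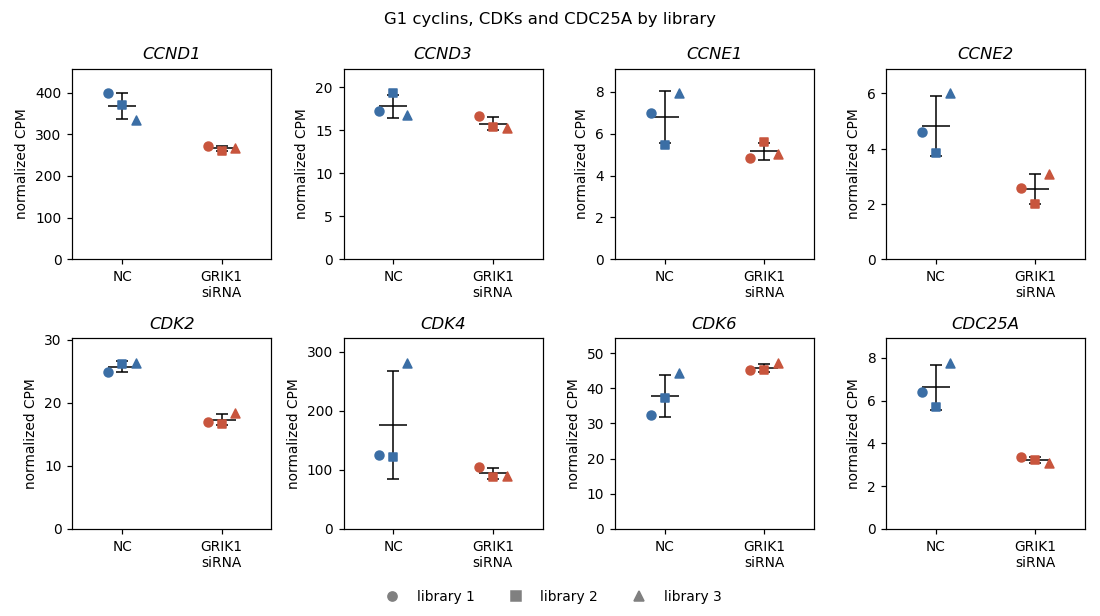
Normalized CPM (vertical axes, from 0) of the 8 tested members in NC libraries and siRNA-labelled libraries. Points are libraries 1 to 3, horizontal bars are means and whiskers are SD (n = 3). CDC25A is at 5.72 to 7.76 in the NC libraries, against 3.09 to 3.36 in the others, and the NC library 3 value of CDK4, 281, is apart from the other 5.

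CDC25A (ENSG00000164045) occupies chromosome 3, minus strand, bases 48157146 to 48188417 (GRCh38). NC libraries 1, 2 and 3 had 72, 64 and 97 counts of CDC25A, while siRNA-labelled libraries 1, 2 and 3 had 43, 42 and 42. All 3 NC counts were above all 3 others, and the siRNA-labelled libraries were close to each other. The normalized level went from 6.62 ± 1.04 to 3.23 ± 0.133 CPM (SD, n = 3 each). In log2 units the difference was -1.04 ± 0.20 (SE), with an adjusted p of 0.0432 from edgeR. Without NC library 3, CDC25A had -0.90 ± 0.20 (SE; adjusted p = 0.00202 from edgeR). Its log2 fold change was at the 2.18 percentile of all tested genes with 6 libraries and at the 3.03 percentile without NC library 3. The table lists 3 pseudogenes inside CDC25A on the opposite strand, each with 0 to 3 counts per library.

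Promoter windows from RefSeq (GRCh38.p14, 250 bases before to 50 after the start) were used for only 5 of the 9 members, CDC25A, CCND3, CCNE1, CDK4 and CDK6. They were searched on both strands for the E2F motif in the forms TTTCCCGC, TTTCGCGC, TTTGCCGC and TTTGGCGC, and for the E-box CACGTG bound by MYC and related factors. The upstream part is shown for CDC25A, the member that passed the test, and for CDK4 and CDK6, which differed in opposite directions, with matches to either motif in capitals. The CDC25A sequence is chr3:48188418-48188667, minus strand, that of CDK4 chr12:57752311-57752560, minus strand, and that of CDK6 chr7:92836574-92836823, minus strand, the first of 2 windows. The RefSeq start used for CDK4 lies inside the span of CDK4 in the deposited table.
CDC25A: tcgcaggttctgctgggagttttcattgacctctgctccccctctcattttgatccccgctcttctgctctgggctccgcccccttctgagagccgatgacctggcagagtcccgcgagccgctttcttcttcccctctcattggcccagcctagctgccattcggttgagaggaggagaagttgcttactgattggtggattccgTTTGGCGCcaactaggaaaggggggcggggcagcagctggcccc
CDK4: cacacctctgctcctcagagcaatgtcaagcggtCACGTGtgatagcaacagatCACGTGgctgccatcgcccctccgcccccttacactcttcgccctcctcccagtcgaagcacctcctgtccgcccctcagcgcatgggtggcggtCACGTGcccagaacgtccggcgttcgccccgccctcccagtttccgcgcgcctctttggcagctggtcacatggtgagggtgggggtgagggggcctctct
CDK6: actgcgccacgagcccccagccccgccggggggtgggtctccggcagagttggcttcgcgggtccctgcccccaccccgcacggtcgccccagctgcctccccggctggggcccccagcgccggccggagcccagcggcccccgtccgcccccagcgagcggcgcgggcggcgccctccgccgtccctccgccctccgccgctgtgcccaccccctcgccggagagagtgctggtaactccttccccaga
The CDC25A window held 1 match to the E2F motif, TTTGGCGC, beginning 44 bases before the start. At least 1 E2F match was found in 3.31% of the 35116 promoter windows of the same length, and in no other window of the 5 members. The promoters of CCND1, CCND2, CCNE2 and CDK2 were left out of the search, so whether they hold either motif is not known here. CCND1, CCNE2 and CDK2 were also lower in the siRNA-labelled libraries, so the E2F match does not set CDC25A apart from them. The CDK4 window held 3 E-boxes, beginning 216, 196 and 101 bases before the start, where 7.26% of all windows held at least 1. The first CDK6 window held 1 E-box, 30 bases after the start and so outside the printed part, and the second held 0. The windows of CCNE1 and CCND3 held 0 matches to the E2F motif or the E-box. The GC box GGGCGG and the CCAAT box were also searched, and 45% and 34.6% of all windows held at least 1. GC boxes numbered 2 for CDC25A, 3 for CDK4, 7 for CCNE1, 3 and 0 for CDK6, and 5, 4 and 0 for CCND3. CCAAT boxes numbered 2 for CDC25A, 0, 1 and 1 for CCND3, and 0 in the windows of CDK4, CDK6 and CCNE1. A match describes the letters of the window and is not evidence of binding.

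The E cyclins activate CDK2 late in G1. CCNE1 (ENSG00000105173, chromosome 19 from 29811991 to 29824312, plus strand) was counted 79, 61 and 99 times in NC libraries 1, 2 and 3, against 62, 73 and 68 times in siRNA-labelled libraries 1, 2 and 3. On the normalized scale, 5.61 CPM in siRNA-labelled library 2 lay above 5.45 in NC library 2, so the groups overlapped. The log2 fold change of CCNE1 was -0.40 ± 0.20 (SE; adjusted p = 0.254 from edgeR), and -0.27 ± 0.19 (SE; adjusted p = 0.288) without NC library 3.

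CCNE2 (ENSG00000175305, chromosome 8 from 94879770 to 94896678, minus strand) was counted 52, 43 and 75 times in NC libraries 1, 2 and 3, against 33, 26 and 42 times in siRNA-labelled libraries 1, 2 and 3. Its normalized level was 4.82 ± 1.10 CPM in the NC libraries, against 2.56 ± 0.550 in the others (SD, n = 3 each), with no overlap. CCNE2 had a log2 fold change of -0.91 ± 0.27 (SE; adjusted p = 0.103 from edgeR), short of the threshold, and -0.72 ± 0.25 (SE; adjusted p = 0.0359) without NC library 3. INTS8 and NDUFAF6 overlap it on the opposite strand, with 557 to 811 and 229 to 357 counts per library. Whether the counting used strand is not given in the sources used here, so reads in the shared bases could not be assigned to a strand. Counts of this size limit the precision for CCNE1, CCNE2 and CDC25A.

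CDK2, the kinase partner of the E cyclins, differed by a smaller fold but with little spread. CDK2 (ENSG00000123374, chromosome 12 from 55966781 to 55972789, plus strand) was counted 280, 292 and 329 times in NC libraries 1, 2 and 3, against 216, 217 and 250 times in siRNA-labelled libraries 1, 2 and 3. The normalized level was 25.7 ± 0.811 against 17.3 ± 0.959 CPM (SD, n = 3 each). The 2 groups did not overlap, and NC library 3 was at 1.03 times the mean of the other NC libraries. Its log2 fold change was -0.57 ± 0.12 (SE; adjusted p = 0.0509 from edgeR), just short of passing at 0.05. It was -0.55 ± 0.10 (SE; adjusted p = 0.000385) without NC library 3. PMEL, a pigment cell gene, spans all of CDK2 on the opposite strand, with 4 to 20 counts per library.

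Of the D cyclins, which bind CDK4 and CDK6 in response to growth factors, CCND1 was by far the most abundant. CCND1 (ENSG00000110092, chromosome 11 from 69641156 to 69654474, plus strand) was counted 4492, 4147 and 4190 times in NC libraries 1, 2 and 3, against 3494, 3398 and 3604 times in siRNA-labelled libraries 1, 2 and 3. The normalized level was 368 ± 31.5 against 267 ± 6.12 CPM (SD, n = 3 each). The lowest NC value, 335 CPM in NC library 3, was above the highest of the others, 273. For CCND1, edgeR gave a log2 fold change of -0.47 ± 0.12 (SE; adjusted p = 0.0821 from edgeR), and -0.53 ± 0.05 (SE; adjusted p = 2.16e-07) without NC library 3. LTO1 overlaps the end of CCND1 on the opposite strand over 1399 bases. LTO1 had 473 to 730 counts in the NC libraries, against 888 to 941 in the others, the direction opposite to CCND1.

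CCND3 (ENSG00000112576, chromosome 6 from 41934934 to 42050357, minus strand) was counted 195, 216 and 210 times in NC libraries 1, 2 and 3, against 214, 201 and 208 times in siRNA-labelled libraries 1, 2 and 3. After scaling, the lowest NC value was 16.8 CPM and the highest of the others 16.7, so the groups were separate by less than the spread within either. On the FPKM scale they overlapped, with 2.60 in NC library 3 and 2.73 in the lowest siRNA-labelled library. CCND3 had a log2 fold change of -0.17 ± 0.13 (SE; adjusted p = 0.436 from edgeR), and -0.21 ± 0.11 (SE; adjusted p = 0.160) without NC library 3.

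CCND2 (ENSG00000118971, chromosome 12 from 4269771 to 4305353, plus strand), the third D cyclin, was at or near 0. Each NC library held 2 counts, and siRNA-labelled libraries 1, 2 and 3 held 0, 3 and 0. A count of 0 allows up to 3 counts (95% limit, for counting error only), which is 0.0303 FPKM in siRNA-labelled library 1 and 0.0284 FPKM in siRNA-labelled library 3. Both groups were at or under that limit, so no fold is given.

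CDK4 and CDK6 bind the same cyclins but differed in opposite directions. CDK4 (ENSG00000135446, chromosome 12 from 57747727 to 57756013, minus strand) was counted 1405, 1356 and 3515 times in NC libraries 1, 2 and 3, against 1338, 1145 and 1212 times in siRNA-labelled libraries 1, 2 and 3. NC library 3 was at 2.29 times the mean of NC libraries 1 and 2, a ratio at the 98.7 percentile of all tested genes. For the 7 other tested members that ratio lay between 0.873 and 1.42. The normalized level was 176 ± 91.5 against 93.9 ± 9.23 CPM (SD, n = 3 each), and 123 as the mean of NC libraries 1 and 2. The log2 fold change was -0.90 ± 0.33 (SE; adjusted p = 0.149 from edgeR). Without NC library 3 it was -0.39 ± 0.07 (SE; adjusted p = 0.000256), so that library moved CDK4 more than any other member. TSPAN31 overlaps CDK4 on the opposite strand over 2493 bases and had 430, 474 and 709 counts in NC libraries 1, 2 and 3, against 502 to 553 in the others. MARCHF9, which overlaps it over 911 bases, had 241 to 316 counts per library.

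CDK6 (ENSG00000105810, chromosome 7 from 92604921 to 92836573, minus strand) was counted 364, 417 and 552 times in NC libraries 1, 2 and 3, against 580, 587 and 641 times in siRNA-labelled libraries 1, 2 and 3. The normalized level was 37.9 ± 5.98 against 45.9 ± 1.18 CPM (SD, n = 3 each), and the highest NC value of 44.2, in NC library 3, was just under the lowest of the others, 45.1. With 6 libraries its log2 fold change was 0.28 ± 0.14 (SE; adjusted p = 0.265 from edgeR). It was 0.40 ± 0.08 (SE; adjusted p = 0.00109) without NC library 3. CDK6 was the 1 member above its NC level in the siRNA-labelled libraries.

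**Figure D2:**
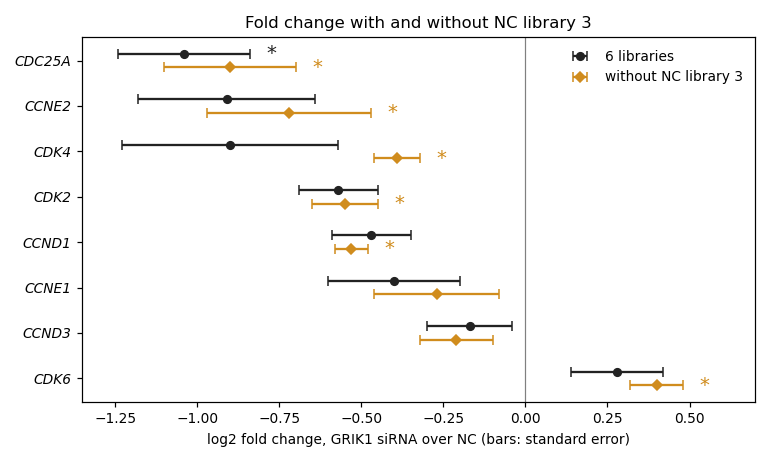
Log2 fold change of each tested member, siRNA-labelled libraries over NC libraries (horizontal axis), from edgeR with 6 libraries (black circles) and without NC library 3 (orange diamonds). Whiskers are the standard error and an asterisk marks an adjusted p under 0.05. Only CDC25A has an asterisk in both fits, and CDK4 moves from -0.90 to -0.39.

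FPKM is scaled to a single exonic size per gene, 5761 bases for CCND3 and 12239 for CDK6, so levels can be set side by side between genes. Which transcripts were expressed was not examined, and the order and family shares below depend on that size. In the NC libraries the order of the mean levels was CCND1 (75.4 ± 11.4 FPKM), CDK4 (53.8 ± 23.7), CDK2 (6.43 ± 0.359), CCND3 (3.01 ± 0.387), CDK6 (2.99 ± 0.277), CCNE1 (2.66 ± 0.375), CDC25A (1.54 ± 0.141), CCNE2 (1.06 ± 0.170) and CCND2 (0.02 in each library). CCND1 and CDK4 overlapped between libraries, as did CCND3 with CDK6 and CDK6 with CCNE1. In the siRNA-labelled libraries, CDK6 (3.86 ± 0.0850 FPKM) lay above CCND3 (2.83 ± 0.148 FPKM) in all 3 libraries, and no neighbours in the order overlapped. These levels are on the authors' FPKM scale, which divides by the total count of each library.

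The makeup of each family within a library does not depend on the scaling between libraries. CDK6 made up 6.15%, 7.21% and 3.82% of the summed FPKM of CDK4 and CDK6 in NC libraries 1, 2 and 3, against 9.88%, 11.5% and 11.8% in the siRNA-labelled libraries. The share was higher in all 3 siRNA-labelled libraries, by 5.32 percentage points (two-sided exact permutation test, p = 0.1, the smallest that 3 libraries against 3 can give). Leaving out NC library 3 made the difference 4.37 points. CDK4 thus remained the larger part of the pair in every library. CCNE2 made up 27.0%, 28.3% and 29.8% of the summed FPKM of the E cyclins in the NC libraries, against 23.1%, 16.7% and 25.6% in the others, a difference of -6.58 points (exact permutation test, p = 0.1). Leaving out siRNA-labelled library 2 brought that difference to -4.02 points. CCND1 made up 95.9% to 96.5% of the D cyclins in the NC libraries, against 95.2% to 95.5% in the others, a difference of -0.81 points (exact permutation test, p = 0.1). The adjusted p over the 3 shares was 0.1 for each, and this design cannot pass 0.05.

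**Figure D3:**
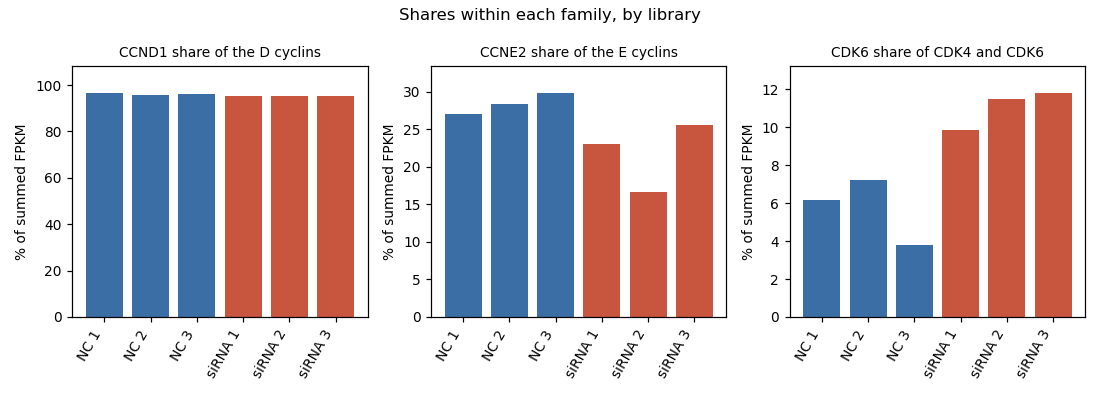
Share of the summed FPKM of its family (vertical axes, percent, from 0) taken by CCND1, CCNE2 and CDK6 in each of the 6 libraries. Blue bars are NC libraries and red bars are siRNA-labelled libraries. The CDK6 share is 3.82% to 7.21% in the NC libraries, against 9.88% to 11.8% in the others.

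The summed FPKM of the E cyclins was 3.72 ± 0.532 in the NC libraries, against 2.76 ± 0.101 in the siRNA-labelled libraries (SD, n = 3 each). That of the D cyclins was 78.4 ± 11.7 against 60.5 ± 1.53, and that of CDK4 and CDK6 was 56.8 ± 23.9 against 35.2 ± 3.12. Each of the 3 sums was lower in all 3 siRNA-labelled libraries than in any NC library (exact permutation test, p = 0.1 for each). For CDK4 and CDK6, NC libraries 1 and 2 had sums of 43.6 and 42.5 and NC library 3 had 84.3, while the highest siRNA-labelled sum was 38.8. The sums of the D cyclins and of the kinases follow CCND1 and CDK4, their most abundant members.

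Lists of 80 further genes around the G1/S step were set beside the members, of which 71 were tested. The edgeR test called 11 of the 71 lower (1.48% of all tested genes) and 0 higher (1.60% of all tested genes). At an unadjusted p under 0.05 in edgeR, 28 were lower and 4 higher, where 13.2% and 12.0% of all tested genes were. DESeq2 called 19 lower and 3 higher, against 4.84% and 5.20% of all tested genes. Without NC library 3, edgeR called 31 lower and 6 higher, against 18.3% and 16.9% of all tested genes. All 11 genes called with 6 libraries were among the 31, with log2 fold changes from -1.50 to -0.51. The median log2 fold change of the 71 genes was -0.34, and -0.15 without NC library 3.

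The genes that E2F factors switch on for S phase held 6 of these calls among 18 tested genes, with a median of -0.69. Of the 18, 16 had a log2 fold change below 0. The others were TK1 at 0.39 and POLA1 at 0.25 (adjusted p of 0.125 and 0.275 from edgeR). CDC6, which loads the replicative helicase, fell from 27.9 ± 5.09 to 13.4 ± 0.671 CPM, a log2 fold change of -1.05 (adjusted p = 0.0306 from edgeR). CDC45, a part of the active helicase, had -1.08 (adjusted p = 0.0386), and RRM2, a subunit of ribonucleotide reductase, had -0.88 (adjusted p = 0.0303). The helicase subunits MCM3, MCM4 and MCM5 had -0.72, -0.68 and -0.88 (adjusted p of 0.0366, 0.0369 and 0.0310). Leaving out NC library 3, edgeR called 13 of 18 lower and 1 higher (18.3% and 16.9% of all tested genes), with a median of -0.51. In that fit CDC6 had -0.89, CDC45 -1.08, RRM2 -0.81, MCM3 -0.80, MCM4 -0.71 and MCM5 -0.96. Their adjusted p from edgeR ran from 4.73e-08 for MCM3 to 0.000564 for CDC45. The 1 called higher was TK1, at 0.37 (adjusted p = 0.016). PCNA at -0.07 and CCNA2 at 0.12 were not called (adjusted p of 0.448 and 0.587).

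In the list of the RB and E2F families, 2 of 11 tested genes were called lower and 0 higher (1.48% and 1.60% of all tested genes). Their median was -0.37. E2F1, an activating E2F, fell from 21.7 ± 1.73 to 8.01 ± 1.49 CPM, a log2 fold change of -1.44 (adjusted p = 0.0236 from edgeR). TFDP1, the partner with which E2F factors bind DNA, had -0.56 (adjusted p = 0.0448). With 5 libraries, NC library 3 left out, 5 of 11 were called lower and 1 higher, against 18.3% and 16.9% of all tested genes. E2F1 then had -1.50 (adjusted p = 2.12e-07 from edgeR) and TFDP1 -0.51 (adjusted p = 1.19e-06). E2F2 and E2F7 were under the filter.

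Among other cyclins and CDKs, 3 of 14 tested genes were called lower and 0 higher (1.48% and 1.60% of all tested genes), with a median of -0.36. The 3 called were CDK14, with a log2 fold change of -1.26 (adjusted p = 0.0306 from edgeR), CDK5, best known from neurons, with -0.92 (adjusted p = 0.0303), and CCNG2, a cyclin linked to growth arrest, with -0.77 (adjusted p = 0.0338). These 3 are not core parts of the G1/S step. Of the same genes, 7 of 14 were called lower and 0 higher without NC library 3, against 18.3% and 16.9% of all tested genes. CDK14 then had -1.05, CDK5 -0.84 and CCNG2 -0.67 (adjusted p of 2.75e-06, 7.96e-06 and 5.31e-07 from edgeR).

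None of the 3 tested inhibitors, 11 CDK-modifying genes and 14 turnover genes were called in edgeR with 6 libraries. Among the inhibitors, CDKN1A, which encodes p21 and binds CDK2 complexes, had a log2 fold change of 0.40 (adjusted p = 0.0973 from edgeR), and 0.41 (adjusted p = 1.43e-05) without NC library 3. CDKN2D, an inhibitor of CDK4 and CDK6, had -0.98 (adjusted p = 0.104), and CDKN1B, which encodes p27, had -0.08 (adjusted p = 0.693). In the fit without NC library 3, CDKN2D was called lower at -0.69 (adjusted p = 0.0209 from edgeR) and CDKN1B was not called (adjusted p = 0.997). That fit thus called 1 of 3 lower and 1 of 3 higher, against 18.3% and 16.9% of all tested genes. CDKN1C, CDKN2A, CDKN2B and CDKN2C were under the filter.

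Among the CDK-modifying genes, the CDC25A paralog CDC25B had a log2 fold change of -0.56 (adjusted p = 0.0879 from edgeR). CHEK1, a kinase that marks CDC25A for degradation, had -0.82 (adjusted p = 0.121), and PKMYT1, which adds inhibitory phosphates to CDK1, had -0.61 (adjusted p = 0.198). In the fit without NC library 3, 4 of 11 were called lower and 0 higher, against 18.3% and 16.9% of all tested genes. Among the 4 were CDC25B at -0.69, CHEK1 at -0.49 and PKMYT1 at -0.80 (adjusted p of 3.06e-05, 0.0180 and 0.0159 from edgeR). Of the turnover genes, FBXW7, the ubiquitin ligase subunit that recognises cyclin E, had 0.56 (adjusted p = 0.0863), and FBXO31, which recognises cyclin D1, had 0.48 (adjusted p = 0.0679). CKS1B, a small subunit of CDK complexes, had -1.07 (adjusted p = 0.150). Its level in NC library 3 was 2.63 times the mean of the other NC libraries, and without that library CKS1B had -0.44 (adjusted p = 0.00908). The fit without NC library 3 called 1 of 14 turnover genes lower and 3 higher, where 18.3% and 16.9% of all tested genes were. These counts do not set the turnover genes apart from all tested genes. Among the 3 were FBXW7 at 0.43 and FBXO31 at 0.45 (adjusted p of 0.000257 and 0.000977 from edgeR).

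**Figure D4:**
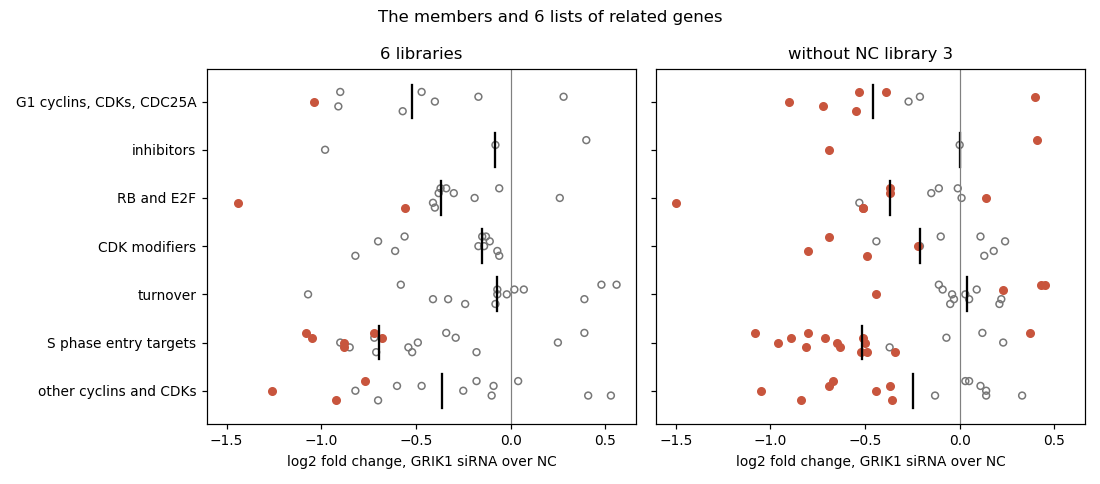
Log2 fold change, siRNA-labelled libraries over NC libraries (horizontal axes), of the 8 tested members and of the 71 tested genes of 6 lists, with 6 libraries (left) and without NC library 3 (right). Each circle is a gene, filled where the adjusted p from edgeR is under 0.05, and vertical bars are medians. The S phase entry targets have the lowest list median, -0.69, and the members have -0.52.

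For each tested member, the other genes with the most similar pattern over the 6 libraries were found by Pearson correlation of log2 CPM, as a description without a test. They were ESRRA and SLC35B2 for CDC25A (r = 0.997 for both), LPP (0.998) and KATNBL1 (0.997) for CDK2, and STK11 and RGL2 for CCND1 (0.998 for both). For CDK4 they were GNG10 and POLE3 (0.999 for both). GNG10 was at 53.7 CPM in NC library 3 and at 15.4 to 21.8 CPM in the other 5, and CDK4 too was highest in NC library 3. For CDK6 they were KIF13A (0.992) and LRRC49 (0.990), for CCNE1 RPP38 (0.998) and TRAF3 (0.997), for CCNE2 CCDC71 (0.993) and ZADH2 (0.992), and for CCND3 ERBIN-DT (0.985) and NR4A2 (0.975). With 6 libraries and 15870 genes, these are the highest of many values, and every pair of genes shares the same libraries, NC library 3 included.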

How the data were processed

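Total RNA of U87-MG cells was sequenced in 3 NC libraries and 3 siRNA-labelled libraries, grouped by title. The authors deposited whole-number counts per gene, not normalized, and FPKM values, which on checking equal the count divided by exonic gene size and library total in 100% of cases (tolerance 0.0051). The submitters' processing notes list cutadapt 1.9.1, HISAT2, HTSeq and GRCh38. Strand settings are not given in the sources used here. The deposited table leaves 0 columns of values unassigned and 0 entries name no gene.

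TMM-scaled counts of the 15870 genes whose mean reached 0.5 FPKM entered a quasi-likelihood fit (edgeR 4.0.16, R 4.3.3). The standard error is the log2 fold change divided by the root of the F statistic. Shares were compared by exact permutation in scipy 1.17.1. Likeness used log2 CPM with a prior count of 2. Libraries were checked for duplicates and each pair differed beyond sampling noise (mean chi-square per gene of at least 2.29). The edgeR, DESeq2 and limma fits were tried on simulated counts with a single dispersion and no library apart, unlike these data. The other steps were not tested in this way. The members and lists were chosen with earlier results of these data known. Named are the 9 members, the called genes of each list or else the 3 with the smallest p, the 2 genes most like each member, and the genes that overlap a member, those with few counts being left out of the text. Intervals and limits at 0 cover counting error only, and 3 libraries against 3 allow an exact p of at least 0.1. Alternatives were other scalings, filters, DESeq2 1.42.0, limma 3.58.1, the replicate number as a block, and leaving out each library.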

Additional observations from a re-analysis of the deposited data

How the results depend on the processing

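The direction of each of the 8 tested members was the same in all 119 values over the 15 other settings, while calls changed. CDC25A, called with 6 libraries in edgeR, was not called in limma-trend on log2(FPKM + 1) or log2(FPKM + 0.1), with the replicate block, or without any 1 library other than NC library 3. Its log2 fold change ranged from -1.13 to -0.49 and its adjusted p from 0.00045 to 0.235. The number of members called lower, 1 with edgeR, was 2 without the filter (CDC25A and CDK4), where 676 of 34080 genes were called lower. At a mean of at least 1 FPKM it was 2 (CDC25A and CDK2), where 252 of 13030 genes were. It was 3 with DESeq2 (CDC25A, CDK2 and CCND1), against 4.84% of all tested genes. With limma voom and quality weights per library it was 6, and 1 member, CDK6, was called higher. Voom called 3319 of 15870 genes lower and 3008 higher. Its weight for NC library 3 was 0.0499, against 1.02 to 2.60 for the others. Both limma-trend fits called 0 members. In them 4 members were lower and 1 higher at an unadjusted p under 0.05, as were 24.5% and 23.6% of all tested genes in either direction. CDC25A had the log2 value farthest from 0 with 6 libraries, but CDK4 did without NC library 1 (-1.10 against -1.06) and in limma-trend on log2(FPKM + 1) (-0.69 against -0.49), and CCNE2 did without siRNA-labelled library 3 (-1.07 against -1.01). With 1 library left out, the number of members called lower ranged from 0 to 5, and members called higher from 0 to 1. Of all tested genes, 0 to 2909 were then called lower and 0 to 2682 higher.

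Over all tested genes, 489 were called and 224 of them with an absolute log2 fold change over 1. These counts were 1403 and 664 without the filter, 1594 and 490 with DESeq2, and 6327 and 738 with voom. They were 407 and 113 in limma-trend with a pseudocount of 1, and 280 and 125 with 0.1. Leaving out 1 library gave 0 to 5591 and 0 to 491. Genes of the 6 lists called lower, 11 with edgeR, were 21 without the filter, 19 with DESeq2 (3 higher), 32 with voom (6 higher), 7 and 6 in limma-trend with pseudocounts of 1 and 0.1, and 0 to 31 (0 to 6 higher) with 1 library left out. The cause of these changes was not tested. The common dispersion of edgeR was 0.0391 with 6 libraries and 0.00298 without NC library 3. The pseudocount of 0.1 moved the median of all genes by 0.11 on the log2 scale.

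No pairing by replicate number was seen. The deviations of same-numbered libraries had correlations of -0.0703, 0.0441 and -0.0425, against -0.0615 to 0.0835 for different numbers. With 3 libraries per group and NC library 3 apart, such values cannot show that pairing is absent. With the replicate block, edgeR called 0 members, 0 of all genes, 0 by the fold change rule and 0 list genes, while 3323 genes had an unadjusted p under 0.05. The difference in share ranged, with 1 library left out, from 4.37 to 6.06 points for CDK6, from -8.50 to -4.02 for CCNE2 and from -0.945 to -0.613 for CCND1. With counts in place of FPKM, which weights genes by length, the differences were 13.7, -8.32 and -0.96 points, against 5.32, -6.58 and -0.81. Depth limits CDC25A, CCNE1 and CCNE2 most, with 26 to 99 counts per library.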
